A study of Mus musculus with 20 samples.

Results

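The expression of 41 glycolysis and glucose metabolism genes was compared across the 4 treatment groups of a bulk RNA sequencing study of mouse knee joints. The genes were chosen by symbol, as the transporters, enzymes and enzyme regulators of glucose use, and all 41 were found among the 14793 genes of the deposited table. Every mouse was a 12-week-old male of the C57BL/6Nci strain and had surgical destabilization of the medial meniscus (DMM) of the right knee, which induces osteoarthritis, so the control joints were operated joints too. Control joints (n = 5) received needle insertion alone. MSC joints (n = 5) were injected with non-activated mesenchymal stromal cells (MSC) of murine adipose tissue, TLR3-MSC joints (n = 5) with MSC activated through Toll-like receptor 3 by pIC, a double-stranded RNA mimic, and STING-MSC joints (n = 5) with MSC activated through the Stimulator of Interferon Genes by 2′,3′ c-GAMP. Injections were given at weeks 3 and 5 after surgery, and the cells of all injected mice came from a single pool of donors, so the mice were replicates and the cell preparation was not. Joints were taken whole, with cartilage, synovium, capsule and adjacent subchondral bone together, and the study's methods and results give different times of collection.

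Glycolysis splits glucose into pyruvate in the cytosol and yields ATP without oxygen. Pyruvate is then reduced to lactate or passed through the pyruvate dehydrogenase complex into the mitochondrial citric acid cycle, and the pentose phosphate pathway branches off after the first step to supply NADPH and ribose. Skeletal muscle, neutrophils and red blood cell precursors rely on these pathways to different degrees and carry different isozymes of the same enzymes, and chondrocytes in the poorly perfused cartilage are known to depend on glycolysis.

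Recovered sequencing depth ranged from 27955496 to 52529973 reads per joint, with group medians from 31917015 to 42283681. No member gene was at 0 in any joint, the smallest member count was 48 reads, and 10 members had under 1000 reads in some joint, so counting error was small for most members. Markers of the named tissues were present in every joint: none of 10 cartilage, 10 bone or 10 synovium and fibroblast markers was at 0. Skeletal muscle is not among the tissues the methods name, and the summed level of 14 muscle markers was from 1045158 to 4243861 normalized counts per joint. MSC replicate 5 had 296 genes at 0, of which 239 were at 0 there alone, and STING-MSC replicate 5 had 97 and 47, so results resting on these joints are given without them as well.

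Across the 6 pairwise comparisons, 7 of the 41 members passed an unadjusted limma p of 0.05 somewhere, and all of their 14 differences were increases. The share of all genes that passed in any of the 6 was not counted, so this pooled count does not set the members apart. Against control, 5 members (12.2%) were higher in MSC joints, 1 (2.44%) in TLR3-MSC joints and 6 (14.6%) in STING-MSC joints. Over all 14793 genes the shares past the same threshold in either direction were 8.55%, 3.58% and 12.2%, and the shares that were higher were 5.64%, 2.68% and 6.54%. STING-MSC joints had 2 members above MSC joints (4.88%, against 4.94% of all genes in either direction and 2.77% that were higher), and no member passed between TLR3-MSC and MSC joints (3.88% of all genes) or between STING-MSC and TLR3-MSC joints (2.57% of all genes). In the limma F test for any difference among the 4 groups 2 members passed, *Pfkfb4* (adjusted p = 0.482) and *Hk3* (adjusted p = 0.736), or 4.88% of the members against 6.42% of all genes. No member passed a false discovery rate (FDR) of 0.05 over all genes in limma, where 1 gene of the table did so in MSC against control (0.00676%) and none in the other comparisons. Without MSC replicate 5 and STING-MSC replicate 5, a choice made after seeing the data, 8 members passed in MSC, 1 in TLR3-MSC and 3 in STING-MSC joints against control, and 5 between STING-MSC and MSC joints, while 13.7%, 4.32%, 7.77% and 8.42% of all genes did so in that fit. With only the 2 groups in the fit, *Slc2a3*, *Pfkfb4*, *Pgd* and *G6pdx* in MSC against control and *Pfkfb3* in STING-MSC against MSC joints missed the threshold at the same fold changes, and with quantile normalization *G6pdx* and *Pgd* in MSC, *Pgd* and *Tkt* in STING-MSC against control and *Pfkfb4* in STING-MSC against MSC joints did. Without control joint 1, *Hk3* (0.44), *G6pdx* (0.32) and *Pgd* (0.29) also passed in TLR3-MSC against control and *Taldo1* (0.33) in STING-MSC against control. In DESeq2 on the recovered reads, *Pfkfb4* in STING-MSC against control had an FDR of 0.0102 and a fold change of 0.36 on the log2 scale. In that comparison 85 of 14754 genes passed an FDR of 0.05 in DESeq2, and none did in limma. In the DESeq2 test across the 4 groups *Pfkfb4* had an FDR of 0.0328, and 111 genes passed. In joints sequenced in bulk, fewer cells of a type and less RNA per cell cannot be told apart, and this applies to every difference given here.

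**Figure D1:**
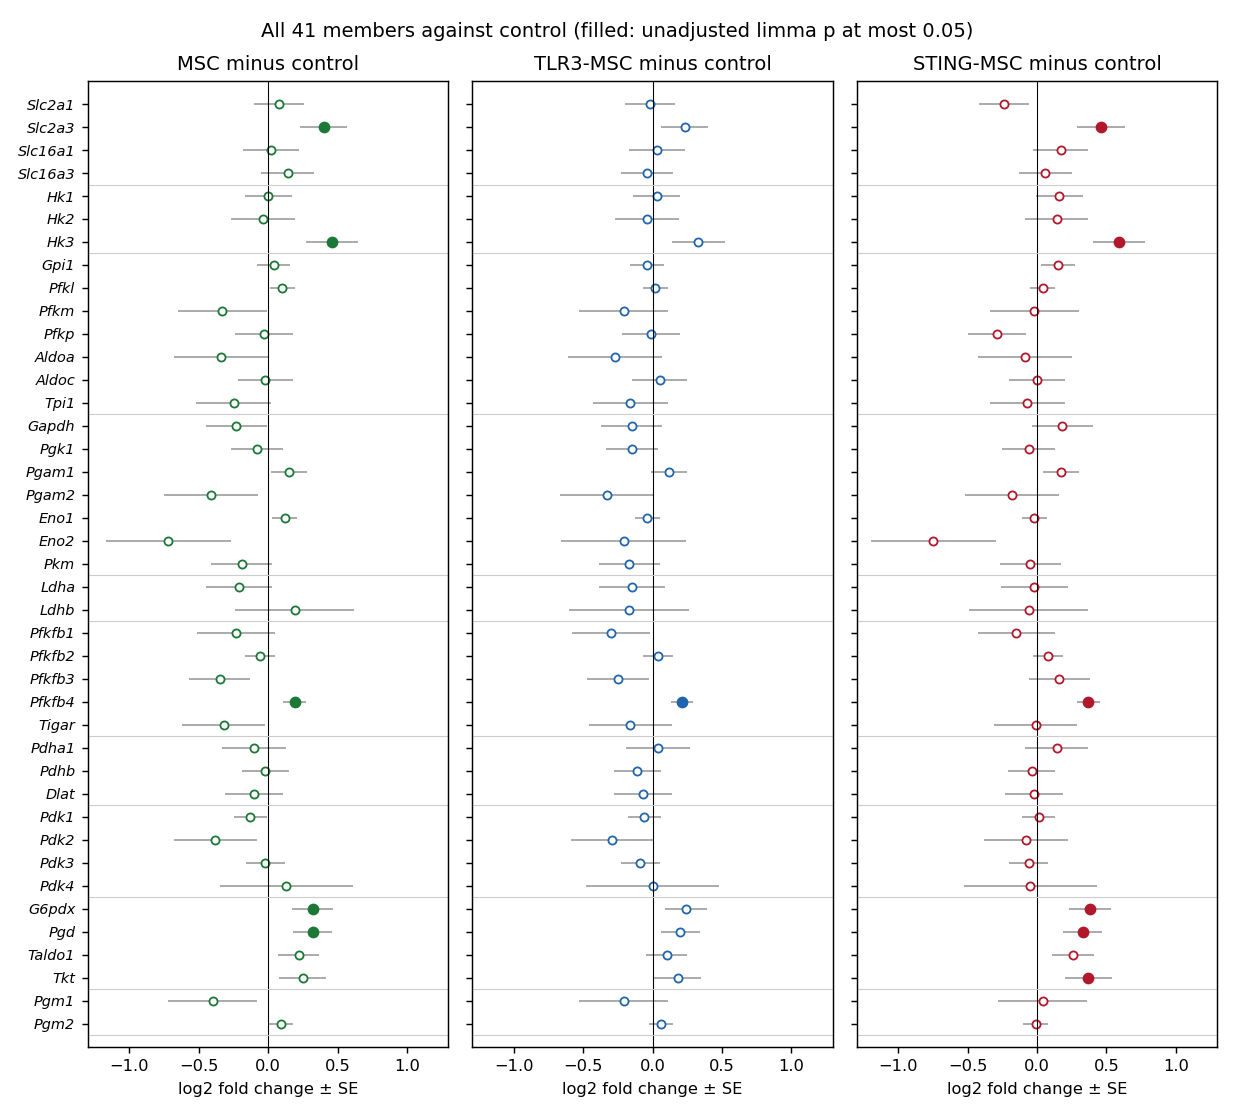
Log2 fold change (horizontal axis, ± SE from limma) of each of the 41 members in MSC, TLR3-MSC and STING-MSC joints minus control, with the members ordered by role and grey lines between roles. Filled points have an unadjusted p of at most 0.05: 5, 1 and 6 members, all to the right of 0.

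*Pfkfb4* encodes a bifunctional enzyme that makes and breaks fructose 2,6-bisphosphate, the allosteric activator of phosphofructokinase. It lies at chr9:108820846-108861296 on the plus strand of GRCm39, and no stretch of its transcript was shared with another gene. In control joints 1 to 5 its normalized counts were 2669.7, 2552, 2075, 2353 and 2385, and in MSC joints 3048, 2509.6, 2552, 2918 and 2661. The TLR3-MSC joints had 2638, 2757, 3154, 2873 and 2469.6, and the STING-MSC joints 3332, 3188, 2923, 2996 and 3058. All 5 STING-MSC joints were above all 5 control joints, while the other groups overlapped both. Of all genes, 0.933% were higher without overlap in this comparison, and *Pfkfb4* was the 1 member of 41 to be so (2.44%).

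The group means of *Pfkfb4* were 2407 ± 226 in control, 2738 ± 235 in MSC, 2778 ± 258 in TLR3-MSC and 3099 ± 162 in STING-MSC joints (SD, n = 5 each). The log2 fold change against control was 0.19 ± 0.08 (SE, limma p = 0.0307, exact p = 0.0635) for MSC, 0.21 ± 0.08 (limma p = 0.0179, exact p = 0.0476) for TLR3-MSC and 0.37 ± 0.08 (limma p = 0.000197, exact p = 0.00794, FDR 0.208) for STING-MSC joints. Against MSC joints, STING-MSC joints were higher by 0.18 ± 0.08 (limma p = 0.0351, exact p = 0.0317), whereas the 0.16 ± 0.08 between STING-MSC and TLR3-MSC joints missed the threshold (limma p = 0.0586, exact p = 0.0476) and was past it without control 3 (0.16), TLR3-MSC 3 (0.21) or STING-MSC 3 (0.18). The exact p is from a two-sided permutation test of the 2 groups alone, and 0.00794 is the smallest that 5 against 5 joints allow. The difference between STING-MSC and control joints stayed past the limma threshold with any 1 of its 10 joints left out, at 0.32 to 0.41. The call against control was lost for MSC without control 3 or 4 or MSC 1 or 4 (0.13 to 0.18), and for TLR3-MSC without control 3 or TLR3-MSC 3 (0.16 each). The call against MSC was lost without MSC 2, 3 or 5 or STING-MSC 1 or 2 (0.15 to 0.17).

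**Figure D2:**
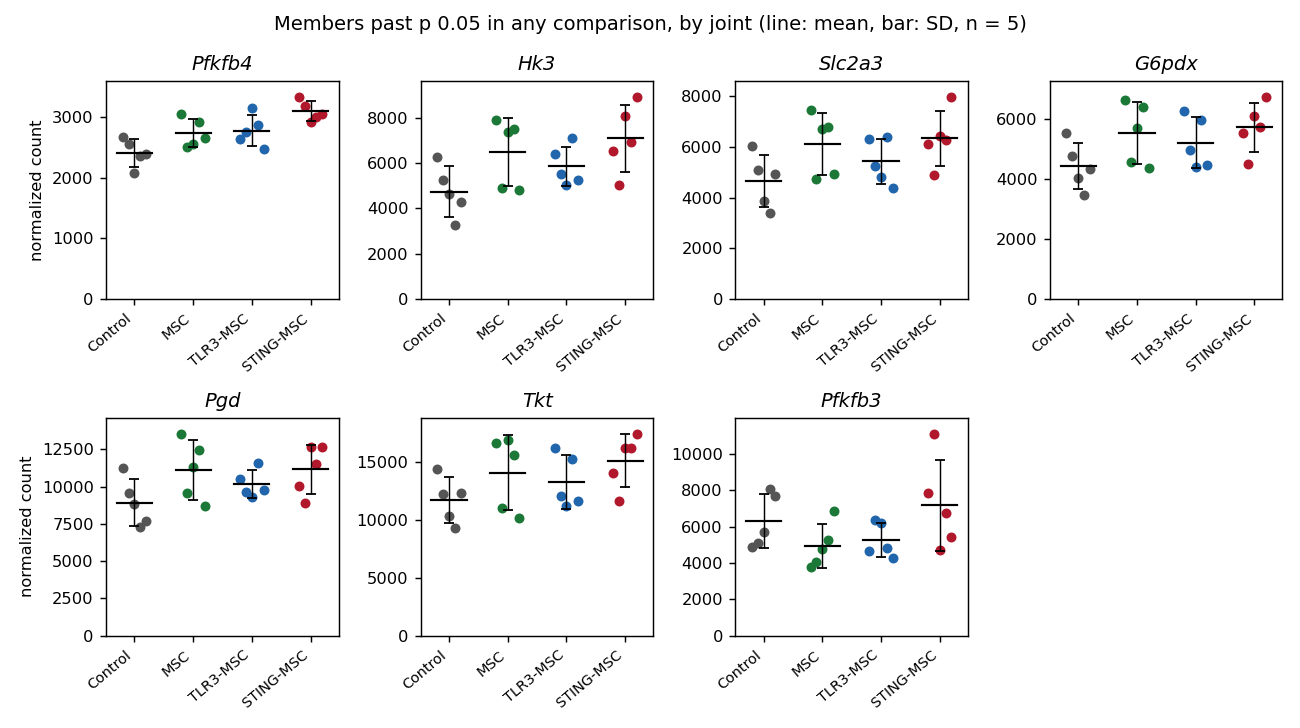
Normalized counts (vertical axes, starting at 0) of the 7 members past an unadjusted p of 0.05 in any pairwise comparison, 1 point per joint, with the group mean (line) and SD (bar), n = 5. The 5 STING-MSC joints lie above the 5 control joints for *Pfkfb4*, and for the other 6 genes the groups overlap.

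The promoters of *Pfkfb4* and of the 3 pentose phosphate genes that were higher in STING-MSC joints are shown as examples with and without a searched motif. The sequences are the 100 bases before the annotated start of the canonical transcript, read 5′ to 3′ on the strand of the gene from GRCm39, and capitals mark the core of the hypoxia response element, ACGTG or GCGTG on either strand.
Pfkfb4, chr9:108820746-108820845, plus strand: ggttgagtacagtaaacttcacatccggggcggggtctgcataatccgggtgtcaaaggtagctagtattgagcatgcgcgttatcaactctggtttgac
G6pdx, chrX:73472820-73472919, minus strand: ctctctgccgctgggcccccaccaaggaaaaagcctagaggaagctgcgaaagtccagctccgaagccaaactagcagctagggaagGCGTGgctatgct
Pgd, chr4:149251179-149251278, minus strand: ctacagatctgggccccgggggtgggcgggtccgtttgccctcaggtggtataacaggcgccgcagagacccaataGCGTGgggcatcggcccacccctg
Tkt, chr14:30270981-30271080, plus strand: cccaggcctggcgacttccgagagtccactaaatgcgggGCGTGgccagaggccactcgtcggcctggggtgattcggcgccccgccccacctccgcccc
Within 250 bases before the start, the core was found in 27 of the 41 members (65.9%) and in 7380 of 14787 promoters of the table (49.9%). It was present for *G6pdx*, *Pgd*, *Tkt* and *Hk3* and not for *Pfkfb4*, *Pfkfb3* or *Slc2a3*. The muscle MEF2 motif, CTA and TAG 4 bases apart, was found in 2 members (4.88%, against 3.06% of all promoters) and the myeloid PU.1 motif GAGGAAGT in 1 (2.44%, against 2.17%). These are letter matches and not bound sites. The canonical start of *Tkt* lies inside the gene span given for it below, and so does the *Tkt* sequence shown. Part of the *Pgd* sequence also lies inside the span given for *Pgd*, so these stretches are upstream of the canonical start only.

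*Hk3* was the hexokinase that differed between groups. Hexokinases phosphorylate glucose on entry, *Hk1* being the broadly expressed form, *Hk2* the form of muscle and fat, and *Hk3* a form of myeloid cells. *Hk3* is at chr13:55153798-55169198 on the minus strand. Normalized counts of *Hk3* were 6269, 5258, 4631, 3265 and 4269 in control joints 1 to 5 and 7899, 4916, 7396, 7536 and 4836 in MSC joints. They were 6419, 5533, 5053, 7114 and 5265 in TLR3-MSC joints and 6557, 5059, 8075, 6950.3 and 8927 in STING-MSC joints. Of the STING-MSC joints 4 were above every control joint and the fifth was within the control range, and 3 of the MSC joints were above every control joint. *Hk3* was higher than control by 0.59 ± 0.19 in STING-MSC joints (log2 scale, SE, limma p = 0.00498, exact p = 0.0238, FDR 0.296) and by 0.46 ± 0.19 in MSC joints (limma p = 0.0235, exact p = 0.0714), with 0.33 ± 0.19 in TLR3-MSC joints (limma p = 0.0914, exact p = 0.103). The STING-MSC call held with any 1 joint left out, at 0.47 to 0.71, and the MSC call was lost without control 4 or MSC 1, 3 or 4 (0.33 to 0.41). *Hk1* and *Hk2* passed in no comparison of the main test. *Hk2* had means of 5734 ± 805, 5765 ± 1936, 5726 ± 1645 and 6461 ± 1808 (SD, n = 5 each) in control, MSC, TLR3-MSC and STING-MSC joints. Per kilobase of transcript, *Hk3* made up 42.6% of the 3 hexokinases on average, *Hk1* 39.6% and *Hk2* 17.8%. The *Hk3* share was 37.8% ± 4.63 in control, 45.2% ± 4.03 in MSC and 44.8% ± 5.52 in STING-MSC joints (SD, n = 5 each, two-sided exact permutation p = 0.0159 and 0.0794). The *Hk1* level itself had log2 differences of 0.00 in MSC and 0.16 in STING-MSC joints, and its share fell from 43.0% ± 2.94 in control to 37.6% ± 3.92 in MSC and 37.8% ± 1.58 in STING-MSC joints (SD, n = 5 each, two-sided exact permutation p = 0.0397 and 0.0159). These were among 72 tests of 24 isozyme shares against control, unadjusted, of which 7 had a p of at most 0.05. Shares within a family depend on each other, and both genes of a pair give the same p. *Slc2a1* and *Slc2a3* are thus both among the 7, each with an exact permutation p of 0.0476 in STING-MSC joints.

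Among the transporters, *Slc2a3* (GLUT3), the high-affinity glucose transporter of neurons and leukocytes, was higher in MSC and STING-MSC joints. Its gene is at chr6:122704768-122778599 on the minus strand. Control joints 1 to 5 held 6035, 5074, 3874, 3406 and 4916 normalized counts and MSC joints 7481, 4720.4, 6719.9, 6805 and 4924. TLR3-MSC joints held 6308, 5247, 4829, 6402 and 4376, and STING-MSC joints 6123, 4889, 6427, 6291 and 7969.6. The groups overlapped, with 4 STING-MSC joints and 3 MSC joints above the highest control joint. *Slc2a3* was 0.46 ± 0.17 higher than control in STING-MSC joints (log2 scale, SE, limma p = 0.0146, exact p = 0.0397), 0.40 ± 0.17 higher in MSC joints (limma p = 0.0292, exact p = 0.0794) and at 0.23 ± 0.17 in TLR3-MSC joints (limma p = 0.183, exact p = 0.238). The STING-MSC call was lost without control 4 (0.35), and the MSC call without control 3 or 4 or MSC 1, 3 or 4 (0.29 to 0.36).

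*Slc2a1* (GLUT1), the basal glucose transporter of many cell types including chondrocytes, passed in no comparison. It had 584, 643, 765, 850.3 and 445 normalized counts in control joints 1 to 5 and 639, 977, 736, 574 and 545 in MSC joints. The TLR3-MSC joints had 512, 695, 568, 569 and 887 and the STING-MSC joints 492, 607, 579, 558 and 490.2. The STING-MSC joints were the least spread and lay in the lower part of the range of the other groups, with a log2 difference of -0.24 ± 0.18 against control (SE, limma p = 0.204, exact p = 0.198) and -0.32 ± 0.18 against MSC joints (limma p = 0.0949, exact p = 0.0794). Past the threshold were the first without control replicate 5 (-0.37) and the second without MSC replicate 5 (-0.40). Over the 20 joints with group means subtracted, *Slc2a1* had r = 0.68 with the synovium and fibroblast markers (rho 0.67, adjusted permutation p = 0.0154, r = 0.69 without control 4 and MSC 4) and -0.55 with the erythroid markers (rho -0.48, adjusted permutation p = 0.0911, r = -0.72 without MSC 2 and MSC 5). *Slc2a3* accounted for 90.4% of the 2 glucose transporters per kilobase, 88.3% ± 4.67 in control and 92.7% ± 1.72 in STING-MSC joints (SD, n = 5 each, two-sided exact permutation p = 0.0476, one of the same unadjusted tests). The monocarboxylate transporters *Slc16a1* and *Slc16a3*, which carry lactate across the membrane, had log2 differences against control from -0.04 to 0.17 and passed in no comparison of the main test.

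Among the roles of the members, the pentose phosphate pathway had the most past the threshold in the main fit. These were 2 of 4 in MSC and 3 of 4 in STING-MSC joints against control. The shares of all genes past it in either direction were 8.55% and 12.2%. The median log2 difference of these 4 members was 0.28 in MSC, 0.19 in TLR3-MSC and 0.35 in STING-MSC joints, beside medians of -0.04, -0.01 and 0.01 over all genes. Of 5 other enzymes of the pathway outside the members, none passed against control in any group. Their median log2 differences were 0.12 in MSC, 0.0 in TLR3-MSC and 0.10 in STING-MSC joints. The calls of the 4 pathway members depended on the joints with many genes at 0. Without MSC replicate 5 and STING-MSC replicate 5, all 4 passed against control in MSC joints and none in STING-MSC joints. In that fit 13.7% and 7.77% of all genes passed. *G6pdx*, glucose-6-phosphate dehydrogenase and the entry enzyme of the pathway, is at chrX:73453089-73472800 on the minus strand. It had 5551, 4769.7, 4050.3, 3478 and 4341 normalized counts in control joints 1 to 5 and 6645, 4574, 5725, 6428 and 4361 in MSC joints. In TLR3-MSC joints the counts were 6266, 4988, 4415, 5979 and 4485, and in STING-MSC joints 5535, 4523, 6125, 5751 and 6744. Both injected groups with a call had 3 joints above every control joint and overlapped control in the other 2. *G6pdx* was higher by 0.38 ± 0.15 in STING-MSC (log2 scale, SE, limma p = 0.0209, exact p = 0.0476) and 0.32 ± 0.15 in MSC joints (limma p = 0.046, exact p = 0.0952). The first call was lost without control 4 (0.29) or STING-MSC 5 (0.31) and the second without control 3, 4 or 5 or MSC 1, 3 or 4 (0.23 to 0.31).

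*Pgd*, 6-phosphogluconate dehydrogenase, is the second NADPH-producing enzyme of the pathway and is at chr4:149234448-149251228 on the minus strand. Its normalized counts were 11229, 9544, 8863, 7282 and 7671 in control joints 1 to 5, and 13549, 9591, 11294, 12463 and 8718 in MSC joints. TLR3-MSC joints had 10516, 9659.8, 9292, 11605 and 9798, and STING-MSC joints 10024, 8901, 12692, 11499 and 12689. Control 1 lay above 2 joints of the STING-MSC group and 2 of the MSC group, so the groups overlapped. *Pgd* was 0.33 ± 0.14 higher in STING-MSC (log2 scale, SE, limma p = 0.0277, exact p = 0.0556) and 0.32 ± 0.14 higher in MSC joints than in control (limma p = 0.0323, exact p = 0.0952). Without control 4 or 5 or STING-MSC 3, 4 or 5 (0.26 to 0.31), and for MSC without control 4 or 5 or MSC 1, 3 or 4 (0.24 to 0.31), the difference missed the threshold.

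*Tkt*, transketolase, returns pentoses to glycolysis in the non-oxidative branch and is at chr14:30270316-30296677 on the plus strand. In control joints 1 to 5 it had 14406, 12266, 10355, 9320.2 and 12318 normalized counts, and in MSC joints 16684, 10997, 16955, 15625 and 10144. The TLR3-MSC joints had 16261, 12059, 11182, 15290.5 and 11659.6, and the STING-MSC joints 14079, 11607, 16256, 16192 and 17447. In each of the MSC and STING-MSC groups 3 joints were above every control joint. The log2 difference from control was 0.37 ± 0.17 in STING-MSC joints (SE, limma p = 0.0402, exact p = 0.0556) and 0.25 ± 0.17 in MSC joints (limma p = 0.156, exact p = 0.238). The STING-MSC call was lost without control 3 or 4 or STING-MSC 3, 4 or 5 (0.29 to 0.34). *Taldo1*, transaldolase, had 0.26 ± 0.15 in STING-MSC joints (limma p = 0.099, exact p = 0.103) and 0.22 ± 0.15 in MSC joints (limma p = 0.149, exact p = 0.278). Without MSC replicate 5, *Taldo1* (0.31) and *Tkt* (0.36) also passed against control in MSC joints, and *Pfkfb3* passed as lower (-0.48), so that 8 members did so in place of 5.

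Neutrophil markers moved with these differences, as did other marker lists in STING-MSC joints. The mean log2 level of 10 neutrophil markers was 14.77 in control, 15.32 in MSC, 15.07 in TLR3-MSC and 15.31 in STING-MSC joints, a difference from control of 0.56 (two-sided exact permutation p = 0.0556), 0.30 (p = 0.151) and 0.54 (p = 0.0397). Of the 10 markers 7 were higher past the unadjusted limma threshold in MSC, 2 in TLR3-MSC and 8 in STING-MSC joints. Their summed level was from 396569 to 709023 normalized counts in control, 567462 to 967306 in MSC, 531161 to 821623 in TLR3-MSC and 566530 to 883008 in STING-MSC joints, and no marker was at 0 in any joint. The median of the summed level was lowest in control joints, at 487818. Endothelial markers were lower in STING-MSC than in control joints, with a log2 difference of -0.42 in their mean level (two-sided exact permutation p = 0.0159), 6 of 10 lower past the limma threshold, none at 0, and a summed level of 16496 to 21496 against 19211 to 27838 normalized counts. Of 10 macrophage and monocyte markers 2 were higher past the limma threshold in both MSC and STING-MSC joints than in control, with a summed level of 108527 to 149484 in control, 137724 to 200682 in MSC and 129799 to 197157 in STING-MSC joints. Epidermal markers differed by -2.97 between STING-MSC and TLR3-MSC joints (exact permutation p = 0.0159), with 4 of the 8 in the table lower, 4 at 0 in some STING-MSC joint and a summed level of 78.7 to 187 against 184 to 25585. The part of these cell types in the member differences was not tested.

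Within groups, the joints with high neutrophil markers had high *Hk3* and high pentose phosphate enzymes. Over the 20 joints, with the group means subtracted, Pearson's r with the mean neutrophil marker level was 0.97 for *Hk3*, 0.96 for *Taldo1*, 0.95 for *Pgd*, 0.93 for *G6pdx*, 0.91 for *Tkt* and 0.89 for *Slc2a3*. Spearman's rho for these 6 genes was 0.95, 0.95, 0.93, 0.92, 0.87 and 0.89, with adjusted permutation p-values of r from 0.000102 to 0.000205 (Benjamini-Hochberg over the 41 members), and r without the 2 joints farthest from the median of the markers, control 4 and MSC 4, was 0.88 to 0.97. *Pfkfb4* had r = 0.30 (rho 0.28, adjusted permutation p = 0.261, r = 0.25 without the 2 joints), and *Pfkfb3* had r = -0.69 (rho -0.71, adjusted permutation p = 0.0106, r = -0.73). In all, 11 members correlated positively and 2 negatively with the neutrophil markers at an adjusted p of at most 0.05. No share over all genes stands beside these counts. The same genes also followed the erythroid markers, with r = 0.88 for *Tkt*, 0.83 for *Taldo1*, 0.79 for *Slc2a3*, 0.78 for *G6pdx* and 0.70 for *Hk3* (rho 0.86, 0.83, 0.79, 0.78 and 0.68, adjusted permutation p from 0.00113 to 0.0117, r = 0.79, 0.70, 0.70, 0.67 and 0.52 without MSC 2 and MSC 5), while *Pgd* had r = 0.56 (rho 0.56, adjusted permutation p = 0.0739, r = 0.31). All 6 ran against the synovium and fibroblast markers, with r from -0.80 for *Taldo1* to -0.61 for *Pgd* (rho -0.88 to -0.64, adjusted permutation p from 0.000717 to 0.0486, r = -0.87 to -0.57 without control 4 and MSC 4). The marker lists were not separated from each other by these correlations.

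With the neutrophil marker level as a covariate, a fit added after seeing the data, the log2 difference of *Hk3* was -0.09 in MSC and 0.07 in STING-MSC joints against control. Those of *Slc2a3*, *G6pdx* and *Pgd* were -0.05, -0.09 and -0.06 in MSC and 0.02, -0.02 and -0.04 in STING-MSC joints, and that of *Tkt* was -0.07 in STING-MSC joints. None of these 9 differences passed the threshold in that fit. *Pfkfb4* had 0.31 ± 0.09 in STING-MSC (SE, limma adjusted p = 0.615) and 0.17 ± 0.08 in TLR3-MSC joints (limma adjusted p = 0.506), both past the unadjusted threshold, and 0.12 ± 0.09 in MSC joints, which was not. In the same fit *Pdk3*, a pyruvate dehydrogenase kinase, was lower than control in all 3 injected groups, at -0.36, -0.27 and -0.39 (limma adjusted p = 0.254, 0.496 and 0.612). *Hk1*, *Tkt* and *Taldo1* were lower in MSC joints, at -0.38, -0.20 and -0.19 (limma adjusted p = 0.279, 0.326 and 0.271). The shares of all genes past the unadjusted threshold there were 15.3% in MSC, 9.83% in TLR3-MSC and 7.98% in STING-MSC joints against control. Of the 2256 genes past it in MSC joints 1511 were lower. The part of neutrophil content in the differences was not tested beyond this fit, in which the covariate and the groups differ together.

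**Figure D3:**
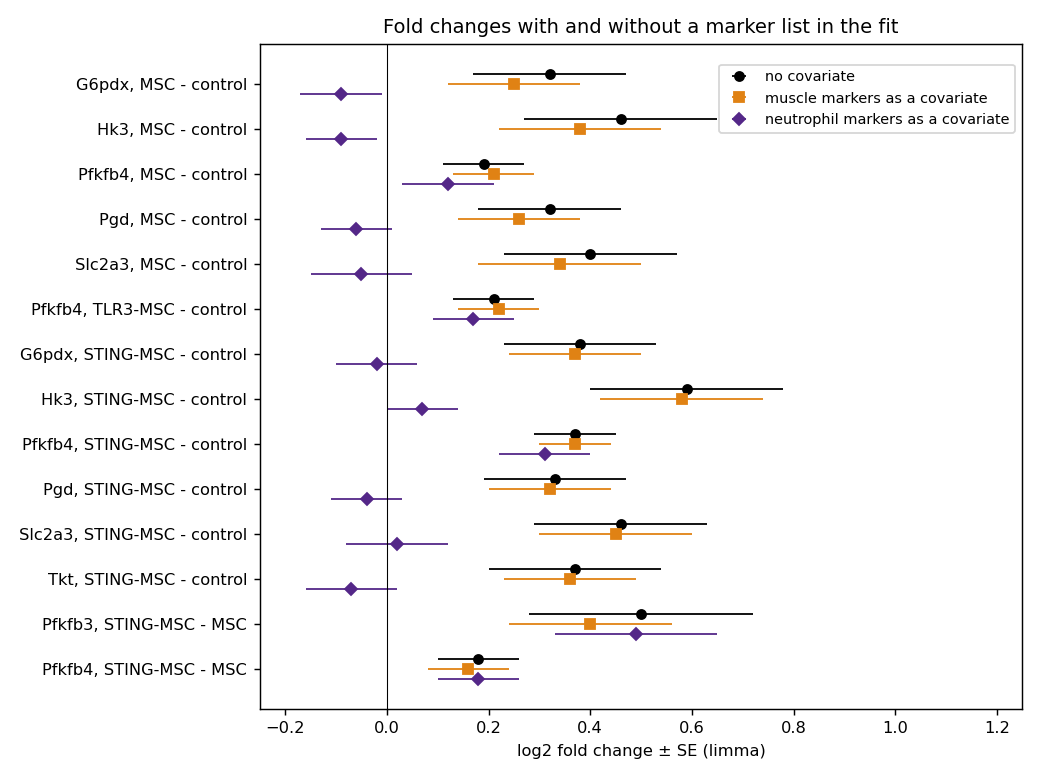
Log2 fold changes (horizontal axis, ± SE from limma) of the 14 member differences past an unadjusted p of 0.05, from the fit without a covariate (circles), with the skeletal muscle marker level (squares) and with the neutrophil marker level (diamonds). With the neutrophil level in the fit, *Hk3*, *Slc2a3*, *G6pdx*, *Pgd* and *Tkt* lie between -0.09 and 0.07, and *Pfkfb4* and *Pfkfb3* between 0.12 and 0.49.

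*Pfkfb3*, the isozyme of the same family with the highest kinase activity and a known driver of glycolytic flux, differed between STING-MSC and MSC joints. It is at chr2:11476244-11558888 on the minus strand. Control joints 1 to 5 had 4900.1, 5069, 5692, 8064 and 7699.9 normalized counts and MSC joints 3781, 4038, 4744, 5276 and 6854. TLR3-MSC joints had 4631, 6342, 6208, 4794 and 4295, and STING-MSC joints 7875, 11104, 4713, 6719 and 5435. STING-MSC joint 2 was the highest of all 20, and STING-MSC joints 3, 4 and 5 were within the MSC range. The difference was 0.50 ± 0.22 (log2 scale, SE, limma p = 0.0306, exact p = 0.0952, FDR 0.938), and it was lost without MSC 1 or 2 or STING-MSC 1 or 2 (0.33 to 0.45). Between STING-MSC and TLR3-MSC joints it was at 0.40 ± 0.22 (limma p = 0.0792, exact p = 0.143), past the threshold without STING-MSC 3 (0.54) or 5 (0.48). Against control, *Pfkfb3* was at -0.35 ± 0.22 in MSC joints (limma p = 0.123, exact p = 0.135) and 0.16 ± 0.22 in STING-MSC joints (limma p = 0.48, exact p = 0.611). In the fit with the neutrophil covariate it was higher in STING-MSC joints than in control (0.59), MSC (0.49) and TLR3-MSC joints (0.59), each past the unadjusted threshold. Per kilobase, *Pfkfb3* made up 46.1% and *Pfkfb4* 36.0% of the 4 *Pfkfb* genes on average. The *Pfkfb4* share was 31.3% ± 4.87 in control, 38.9% ± 6.4 in MSC, 38.1% ± 2.89 in TLR3-MSC and 35.7% ± 6.07 in STING-MSC joints (SD, n = 5 each). Two-sided exact permutation p-values against control were 0.0714, 0.0397 and 0.246. The *Pfkfb1* share was 14.1% ± 2.3 in control and 11.1% ± 1.26 in STING-MSC joints (SD, exact permutation p = 0.0397). These are among the 72 unadjusted share tests. *Pfkfb1*, *Pfkfb2* and the fructose bisphosphatase *Tigar* passed in no comparison.

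The core enzymes from glucose 6-phosphate to lactate held no difference past the threshold: none of the 7 upper glycolysis, 7 lower glycolysis and 2 lactate dehydrogenase members passed in any of the 6 comparisons. With 1 joint left out, *Eno1*, an enolase whose counts are uncertain because of similar copies, passed as lower in TLR3-MSC than in MSC joints without MSC 5 (-0.21) or TLR3-MSC 5 (-0.20) and in STING-MSC than in MSC joints without MSC 5 (-0.19). *Pfkm*, the muscle phosphofructokinase and rate-controlling step of muscle glycolysis, had 54519.7, 71086, 46042, 53733 and 60876 normalized counts in control joints 1 to 5 and 26939.8, 40804, 32186, 66205 and 79133 in MSC joints. It had 30423, 65760.5, 83712, 41542 and 41048 in TLR3-MSC and 68714, 97268, 45422, 47895 and 36920.1 in STING-MSC joints. The lowest and the highest MSC joint enclosed the whole control range, and the log2 difference from control was -0.33 ± 0.32 in MSC (SE, limma p = 0.316, exact p = 0.317) and -0.02 ± 0.32 in STING-MSC joints (limma p = 0.941, exact p = 0.937). *Pgam2*, the muscle phosphoglycerate mutase, had 18148, 32261, 19683, 23309 and 26911 normalized counts in control and 10782, 16859, 10799, 27208 and 32302 in MSC joints. Its TLR3-MSC counts were 10626, 24323, 31752, 16016 and 17591 and its STING-MSC counts 25956, 35962, 16739.9, 18774 and 13198. STING-MSC joint 2 was the highest and TLR3-MSC joint 1 the lowest of the 20 for *Pgam2*, and *Pgam2* in MSC joints was at -0.41 ± 0.34 against control (limma p = 0.241, exact p = 0.286). *Pkm*, pyruvate kinase, had 62637, 79548, 60365, 66665 and 62219 normalized counts in control and 43249, 56124, 45632, 72879.6 and 79532 in MSC joints. TLR3-MSC joints held 43057, 71194, 84716, 50560.1 and 52976 counts of *Pkm* and STING-MSC joints 73771, 93164, 55909, 57067 and 48598, with -0.19 ± 0.22 in MSC joints against control (limma p = 0.389, exact p = 0.341). *Ldha*, which reduces pyruvate to lactate, was at -0.21 ± 0.24 (limma p = 0.402, exact p = 0.381), with means of 58955 ± 7267 in control and 52988 ± 17347 in MSC joints (SD, n = 5 each).

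The variation that *Pfkm*, *Pgam2*, *Pkm* and *Ldha* shared followed the skeletal muscle markers, and that of some other core enzymes did not. Over the 20 joints, with group means subtracted, Pearson's r with the mean log2 level of the 14 muscle markers was at least 0.9 for 15 members, and 14 of the members were at least 0.9 without the 2 joints farthest from the median, STING-MSC 2 and TLR3-MSC 1. The highest was *Pdk2*, a pyruvate dehydrogenase kinase, with r = 0.99 (rho 0.98), followed by *Pgam2*, *Dlat* and *Pdha1* at r = 0.98. *Pfkm*, *Aldoa* and *Ldha* had r = 0.97, *Tpi1* and *Hk2* 0.96 and *Pkm* 0.95. For these members the adjusted permutation p was 2.73e-05, the smallest that the permutations can give after adjustment. In total 22 members correlated positively and 10 negatively with the muscle markers at an adjusted p of at most 0.05, the most negative being *Pdk3* at r = -0.78. The counts are of the 41 members alone, without a share over all genes, so they do not set the members apart from other genes. The neutrophil-correlated *Hk3*, *Pgd*, *G6pdx* and *Tkt* were among the negative ones, at -0.54 to -0.64. So were the core enzymes *Pfkl* (-0.76), *Pgam1* (-0.70) and *Eno1* (-0.61). The core enzymes *Aldoc* (-0.46), *Pfkp* (-0.20) and *Eno2* (0.10) passed in neither direction. *Pfkfb4* had r = 0.34 with the muscle markers.

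**Figure D4:**
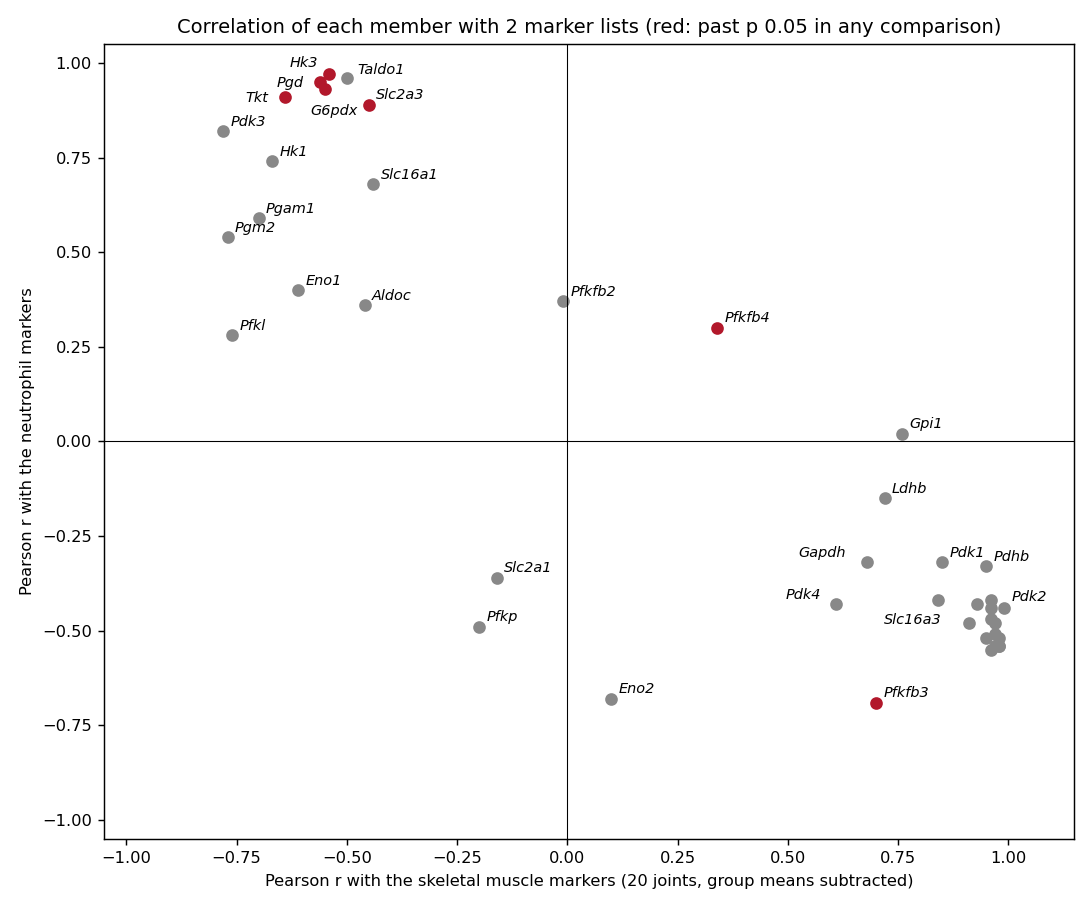
Pearson's r of each of the 41 members with the skeletal muscle markers (horizontal axis) and with the neutrophil markers (vertical axis) over 20 joints with group means subtracted. Red points mark the 7 members past an unadjusted p of 0.05 in a pairwise comparison. *Hk3*, *Pgd*, *G6pdx*, *Tkt* and *Slc2a3* sit at the upper left. The core enzymes *Pfkl*, *Pgam1*, *Eno1* and *Aldoc* are also at the upper left, with lower r for the neutrophil markers. An unlabelled group at the lower right holds the core enzymes *Pfkm*, *Aldoa*, *Tpi1*, *Pgk1*, *Pgam2*, *Pkm* and *Ldha* with members of other roles. *Pfkfb4* lies apart from both groups.

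None of the 14 muscle markers passed the unadjusted limma threshold against control in any group, and their mean log2 level was 16.32 in control, 16.04 in MSC, 16.06 in TLR3-MSC and 16.28 in STING-MSC joints, with two-sided exact permutation p-values against control of 0.421, 0.492 and 0.897. Their summed level was from 2000922 to 2878756 normalized counts in control, 1045158 to 3330021 in MSC, 1320898 to 3539113 in TLR3-MSC and 1669544 to 4243861 in STING-MSC joints, and none was at 0. With the muscle level as a covariate, 13 of the 14 member differences past the threshold stayed past it, and *G6pdx* in MSC joints against control did not (0.25 ± 0.13). In that fit *Pfkfb4* in STING-MSC joints against control was at 0.37 ± 0.07 (limma adjusted p = 0.0844) and *Hk3* at 0.58 ± 0.16 (limma adjusted p = 0.143). *Pdha1*, the catalytic subunit of pyruvate dehydrogenase, also passed there against control, at 0.20 in TLR3-MSC and 0.17 in STING-MSC joints (limma adjusted p = 0.855 and 0.18). *Hk2* passed at 0.16 in STING-MSC joints (limma adjusted p = 0.29). In MSC joints *Slc16a3* was higher (0.27) and *Pdk2* lower (-0.13) than in control (limma adjusted p = 0.394 and 0.376). The shares of all genes past the unadjusted threshold in that fit were 10.6% in MSC, 4.83% in TLR3-MSC and 15.6% in STING-MSC joints against control.

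**Figure D5:**
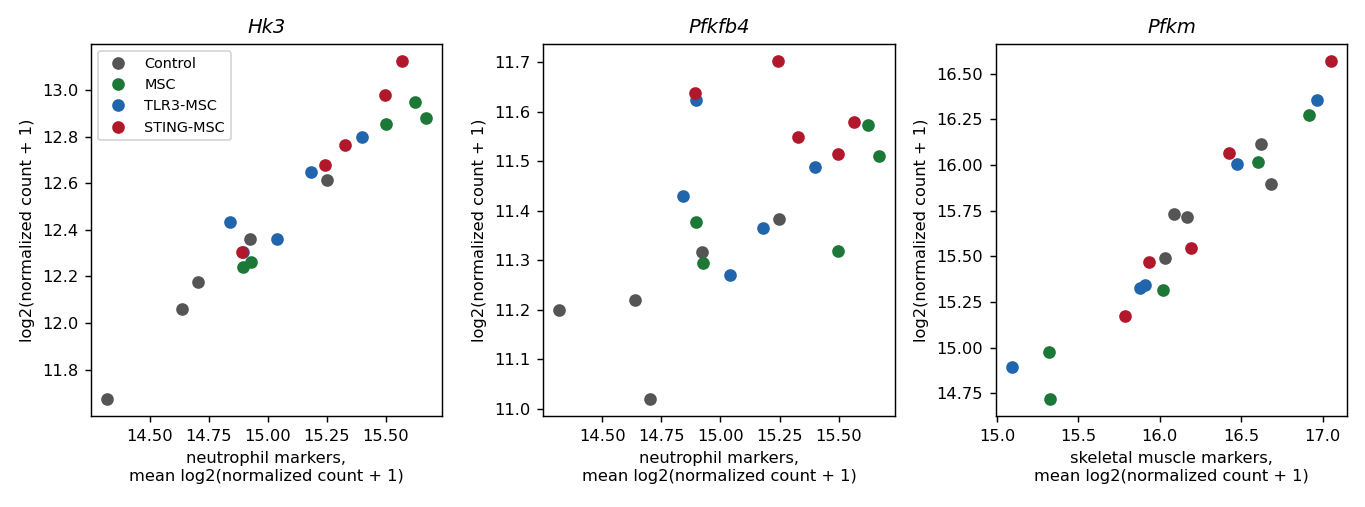
Level of *Hk3*, *Pfkfb4* and *Pfkm* in each of the 20 joints (vertical axes, log2 of normalized count + 1) against the mean log2 level of the neutrophil or skeletal muscle markers (horizontal axes), coloured by group. *Hk3* follows the neutrophil markers and *Pfkm* the muscle markers across all groups (r = 0.97 each within groups), and *Pfkfb4* shows no such line (r = 0.30).

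For other members the highest correlations were with other markers. *Hk1* and *Slc16a1*, the hexokinase and lactate transporter of red blood cells among other cells, had r = 0.95 and 0.96 with 10 erythroid markers (rho 0.96 and 0.94, adjusted permutation p = 0.000205 each, r = 0.92 and 0.96 without MSC 2 and MSC 5). *Eno2* and *Pfkp* had r = 0.91 and 0.85 with 10 synovium and fibroblast markers (rho 0.88 and 0.83, adjusted permutation p = 0.000717 each, r = 0.88 and 0.79 without control 4 and MSC 4). *Eno2*, an enolase of neural and some other cells, had means of 218 ± 113 in control, 145 ± 106 in MSC, 184 ± 81.8 in TLR3-MSC and 120.0 ± 36.0 in STING-MSC joints (SD, n = 5 each). Its log2 difference from control was -0.75 ± 0.45 in STING-MSC (SE, limma p = 0.111, exact p = 0.111) and -0.72 ± 0.45 in MSC joints (limma p = 0.126, exact p = 0.246), and the latter was -1.08 and past the threshold without MSC replicate 2. The synovium and fibroblast marker level was different by -0.72 on the log2 scale in STING-MSC against control joints (two-sided exact permutation p = 0.0238) and by -0.72 against TLR3-MSC joints (p = 0.00794), and 1 of the 10 markers passed the limma threshold against control. Members were correlated only with the muscle, neutrophil, erythroid and synovium and fibroblast lists. The adipocyte, endothelial, macrophage and monocyte, cartilage, bone and epidermal lists were not tried. When each member was assigned to the tried list with its highest r, 23 fell to muscle and 11 to neutrophil. Another 4 fell to erythroid and 3 to synovium and fibroblast, with r down to 0.28 over all members. At an adjusted p of at most 0.05 these were 22, 8, 3 and 3, and the 5 others were *Pfkfb4*, *Pfkl*, *Aldoc*, *Eno1* and *Pfkfb2*. These correlations are across joints of mixed tissue, and the source of each transcript was not tested.

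Levels per kilobase of canonical transcript ordered the members by isozyme. *Aldoa*, the muscle-type aldolase, was the highest member at 150669 normalized counts per kilobase (mean of 20 joints, SD 51531), followed by *Ldha* at 35656, *Pkm* at 25733, *Pgam2* at 24667, *Tpi1* at 21093, *Pfkm* at 13638 and *Taldo1* at 12145. Neighbours from *Pkm* to *Tpi1* lay within the SD of each other, which was from 5864 to 9011. *Aldoa* had an SD range that reached no other member, and the lowest members were *Slc2a1* at 143, *Pfkfb2* at 114, *Eno2* at 59.7 and *Aldoc* at 31.6. Of the phosphofructokinases *Pfkm* made up 92.4% (86.9% to 96.6% over joints), of the phosphoglycerate mutases *Pgam2* 97.2%, of the lactate dehydrogenases *Ldha* 97.7% and of the pyruvate dehydrogenase kinases *Pdk2* 58.5%. Two-sided exact permutation tests of these 4 shares against control gave p from 0.143 to 0.897.

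*Gapdh*, the glyceraldehyde-3-phosphate dehydrogenase often used as a reference gene, was low for a glycolytic enzyme, at 328 normalized counts per kilobase, rank 36 of 41. Control joints 1 to 5 had 387, 629, 533, 396 and 442 normalized counts and MSC joints 236, 350.2, 451, 493 and 551. TLR3-MSC joints had 357, 441, 523, 413 and 396 and STING-MSC joints 658, 729, 409, 409.8 and 524. The difference between STING-MSC and MSC joints was 0.41 ± 0.22 (log2 scale, SE, limma p = 0.0721, exact p = 0.198), and it was past the threshold without MSC 4 or 5 or STING-MSC 3 or 4 (0.49 to 0.53). In the reference annotation, 54 genes elsewhere share stretches of at least 97% identity that cover 88.0% of the *Gapdh* transcript, so reads of *Gapdh* can map to several places and its counts here are uncertain. The same holds for *Eno1* (75.7% of the transcript), *Pdhb* (70.8%), *Pgk1* (68.8%), *Ldhb* (65.5%), *Pkm* (65.1%), *Pgam1* (42.5%), *Gpi1* (36.0%) and *Tpi1* (19.3%), and for none of the 7 members past the threshold. The *Aldoa* row carries a second identifier, of a read-through locus that shares 86.2% of the transcript, and the whole *Pgam2* transcript lies in an overlap with *Dbnl* on the other strand. The strand setting of the counting is not given in the sources used here, so such overlapping genes are uncertain.

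The mitochondrial entry step passed in no comparison of the main test. The pyruvate dehydrogenase subunits *Pdha1*, *Pdhb* and *Dlat* had log2 differences against control from -0.11 to 0.14, and the kinases *Pdk1* to *Pdk4*, which switch the complex off, from -0.38 to 0.13. *Pdk4*, induced in muscle by fasting, was the most variable of them, with means of 3735 ± 2299 in control, 4026 ± 2283 in MSC, 3367 ± 1183 in TLR3-MSC and 3672 ± 2082 in STING-MSC joints (SD, n = 5 each). Its difference between STING-MSC and MSC joints, -0.18 ± 0.48 (SE, limma p = 0.711, exact p = 0.778), ran from -0.45 to 0.20 with 1 joint left out. The phosphoglucomutases *Pgm1* and *Pgm2*, which link glycolysis with glycogen, were at -0.40 to 0.09 against control.

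In signs alone, 35 of 41 members (85.4%) had a log2 difference above 0 between STING-MSC and TLR3-MSC joints, where 55.3% of all genes did, and 30 (73.2%) between STING-MSC and MSC joints, where 55.5% of all genes did. Between TLR3-MSC and MSC joints 22 (53.7%) were above 0, beside 57.4% of all genes. Against control the counts above 0 were 18, 15 and 20 for MSC, TLR3-MSC and STING-MSC joints, or 43.9%, 36.6% and 48.8% beside 42.3%, 47.9% and 51.7% of all genes. The members are not independent of each other, as 22 correlate with the same muscle markers.

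Related genes of glucose metabolism outside the 41 members were counted in 7 lists with 93 genes in the table. Against control, 6 were higher and 3 lower past the unadjusted limma threshold in MSC joints, 2 and 0 in TLR3-MSC joints and 4 and 1 in STING-MSC joints, and none passed an FDR of 0.05. These were 9.68%, 2.15% and 5.38% of the related genes, beside 8.55%, 3.58% and 12.2% of all genes. *Slc2a6*, a lysosomal transporter of myeloid cells, was higher in all 3 injected groups, by 0.49 ± 0.15 in MSC (limma adjusted p = 0.303), 0.41 ± 0.15 in TLR3-MSC (limma adjusted p = 1.0) and 0.51 ± 0.15 in STING-MSC joints (limma adjusted p = 0.290). *Adpgk*, the ADP-dependent glucokinase, was higher by 0.52 ± 0.17 in MSC and 0.59 ± 0.17 in STING-MSC joints (limma adjusted p = 0.335 and 0.290). Among glycogen genes, *Ppp1r3b*, a glycogen-targeting phosphatase subunit, was 0.71 ± 0.18 higher in MSC joints than in control (limma adjusted p = 0.185) and lower than in MSC joints in TLR3-MSC (-0.39 ± 0.18, limma adjusted p = 0.978) and STING-MSC joints (-0.45 ± 0.18, limma adjusted p = 0.93). *Ppp1r3d*, another such subunit, was 0.40 to 0.41 higher than control in all 3 groups, and *Pygl*, the liver-type glycogen phosphorylase also found in leukocytes, 0.43 higher in MSC and 0.47 in STING-MSC joints. *Arrdc4*, a glucose-responsive arrestin relative of *Txnip*, was higher in MSC joints than in control (0.49 ± 0.14, limma adjusted p = 0.299) and lower in STING-MSC (-0.34) and TLR3-MSC joints (-0.38) than in MSC joints. *Pdpr*, a regulatory subunit of pyruvate dehydrogenase phosphatase, was higher than in MSC joints in STING-MSC (0.65) and TLR3-MSC joints (0.55), as was *Pcx*, pyruvate carboxylase (0.42 each), and the sedoheptulose kinase *Shpk* was lower in STING-MSC than in MSC joints (-0.37). *Arnt*, the partner of the hypoxia-inducible factors, was lower in MSC joints than in control (-0.14) and higher in TLR3-MSC than in MSC joints (0.16), and *Foxo1* was lower in STING-MSC than in TLR3-MSC joints (-0.52). *Pdp1* (-0.48) and *Slc2a8* (-0.23) were lower in MSC joints than in control, and *Txnip* (-0.24) lower in TLR3-MSC than in MSC joints. *Slc2a10* was the 1 related gene lower in STING-MSC joints than in control (-1.02 ± 0.47, limma adjusted p = 0.393). The 20 citric acid cycle genes passed in none of the 6 comparisons, with log2 differences against control from -0.23 to 0.07.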

How the data were processed

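Bulk poly(A)-enriched RNA sequencing was performed on 20 knee joints, 5 per group, with groups taken from the labels. Per the study's methods and the submitters' processing notes, the authors filtered reads by adapter and quality, aligned them to GRCm39 with STAR 2.7.3a, counted them per Ensembl gene with HTSeq, and named DESeq2 for testing. The authors deposited 1 table of normalized counts, a signal in which each joint's counts are divided by a size factor. The lowest mean of a gene was 9.4, and no filter is stated in the sources used here.

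The values of each joint were whole multiples of 1 read for 99.8% to 99.9% of genes (within 0.1 read) and for 100% of values under 1000, which gave the reads and the depth per joint. For MSC replicate 3 the step was close to 1. Replicates within a group differed by more than sampling noise in all 40 pairs. Counts cover counting error only.

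The main test was limma 3.58.1 (R 4.3.3) with trend on log2(normalized count + 1) over all 14793 genes and 20 joints, with Benjamini-Hochberg adjustment over all genes. It replaced a DESeq2 count test because the deposited values are normalized. Fold changes are on the log2(value + 1) scale and understate those of low genes. Exact permutation tests used all 252 splits of 5 against 5, and correlations used 100000 permutations within groups. Other settings were a pseudocount of 0.5 or 5, genes with a mean of at least 20, a fit of each pair of groups alone, quantile normalization, a term for the replicate number, a covariate for the mean log2 level of muscle markers, each joint left out, and count tests on the recovered reads in edgeR 4.0.16 and DESeq2 1.42.0. The neutrophil covariate, the fit without MSC 5 and STING-MSC 5 and the correlations with neutrophil, erythroid and synovium and fibroblast markers were added after seeing the data. Scripts were tested on simulated data.

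The members and all gene lists were chosen with earlier results of these data known. Described one by one were members with a limma p of at most 0.05 in a comparison or in the F test and 10 members by role (*Slc2a1*, *Hk2*, *Pfkfb3*, *Pfkm*, *Pgam2*, *Gapdh*, *Pkm*, *Ldha*, *Pdk4* and *G6pdx*), with values in every joint for 12. Of the related lists, those named were, per comparison, the 2 of lowest p, and any others past p 0.05 were added after their values were seen. Other members were named after their values were seen. Gene positions are those of the deposited table, whose stop lies 1 past the last base (5051 genes, against 360 with an equal end) and was lowered by 1. Transcript lengths were found for 14787 genes, and lengths, shared stretches (at least 150 bases at 97% identity) and promoters are from GENCODE vM39 on GRCm39.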

Additional observations from a re-analysis of the deposited data

Results flagged for a closer look

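*Ldha* in control joint 2 stood apart from the other control joints. Its value there was 71282 normalized counts, the next highest control joint had 58243 and the lowest 53441, so the gap to the nearest joint was 0.731 of the range of the group, above the critical value of 0.71 for 5 samples. This was 1 flag among the 60 groups of values checked (15 members in 4 groups), and chance flags about 1 in 20 such groups. The same joint had the highest control value of *Pfkm*, *Pgam2* and *Pkm*, and its mean log2 muscle marker level, 16.6, was the second highest of the control joints, which ran from 16.0 to 16.7. The part of muscle content in the value was not tested.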

How the results depend on the processing

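Pseudocounts of 0.5 and 5, a minimum mean of 20, DESeq2 and the replicate block kept all 14 member differences past the unadjusted threshold, and edgeR kept 13. The fits of only the 2 groups and quantile normalization kept 9 each, the muscle covariate 13, and the fit without MSC 5 and STING-MSC 5 kept 10. The neutrophil covariate kept 4. Counts of members past the threshold moved, among others, as follows. MSC against control had 1 with only the 2 groups, 3 with quantile normalization and 8 without MSC 5 and STING-MSC 5. TLR3-MSC against control had 2 with either covariate. STING-MSC against control had 3 with the neutrophil covariate and 3 without these joints. STING-MSC against MSC had 1 with only the 2 groups, quantile normalization or edgeR, and 5 without these joints. TLR3-MSC against MSC had 1 without these joints, and STING-MSC against TLR3-MSC 1 with DESeq2, with the neutrophil covariate and without these joints. The test across the 4 groups had 4 with the muscle covariate, beside 10.6% of all genes. With the neutrophil covariate the members past the threshold in MSC against control were *Hk1*, *Pdk3*, *Taldo1* and *Tkt*, all lower. That covariate added *Hk3* (0.15) in STING-MSC against MSC joints. With it *Pdk3*, *Pfkfb3* and *Pfkfb4* passed the test across the 4 groups, as did 8.5% of all genes. The muscle covariate added *Slc16a3* and *Pdk2* in MSC against control and *Pdha1* and *Hk2* in STING-MSC against control. The share of all genes moved too: in MSC against control it was 6.14% with only the 2 groups and 13.7% without MSC 5 and STING-MSC 5, in TLR3-MSC against control 4.83% with the muscle and 9.83% with the neutrophil covariate, in STING-MSC against control 7.98% with the neutrophil covariate, and in STING-MSC against MSC 3.48% with only the 2 groups. With quantile normalization the share was 8.63% in MSC against control and 4.33% in STING-MSC against MSC, where edgeR gave 4.85%. Without MSC 5 and STING-MSC 5 it was 7.77% in STING-MSC against control and 8.42% in STING-MSC against MSC. That fit gave 6.8% in TLR3-MSC against MSC and 1.48% in STING-MSC against TLR3-MSC. DESeq2 gave 4.58% and the neutrophil covariate 1.82% in STING-MSC against TLR3-MSC. Under quantile normalization 27 members correlated with the neutrophil markers. The causes were not tested.

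Signs turned with the neutrophil covariate in MSC against control for *G6pdx* and *Hk3* (-0.09 each), *Pgd* (-0.06), *Slc2a3* (-0.05), *Pfkm* and *Pkm* (0.13 each), *Pgam2* (0.14) and *Ldha* (0.17), and in STING-MSC against control for *G6pdx* (-0.02), *Pgd* (-0.04) and *Tkt* (-0.07). *Pdk4* in STING-MSC against MSC was 0.16 without MSC 5 and STING-MSC 5 and -0.45 to 0.20 with 1 joint left out. Leaving out 1 joint gave 0 to 8 members in MSC against control (0 without control 4, MSC 1 or MSC 4, 1 without MSC 3, 2 without control 3, 3 without control 5, 8 without MSC 5), 0 to 4 in TLR3-MSC against control (0 without control 3 or TLR3-MSC 3, 4 without control 1), 2 to 7 in STING-MSC against control (2 without control 4, 3 without STING-MSC 5), 0 to 4 in STING-MSC against MSC (0 without MSC 2 or STING-MSC 1 or 2, 1 without MSC 1 or 3, 4 without MSC 5), 0 to 1 in TLR3-MSC against MSC (1 without MSC 5 or TLR3-MSC 5), 0 to 2 in STING-MSC against TLR3-MSC (2 without STING-MSC 3, 1 without TLR3-MSC 3 or STING-MSC 5), 1 to 5 in the test across groups, 27 to 36 members correlated with muscle markers and 9 to 29 with neutrophil markers. The share of all genes past the threshold ran over the same fits from 5.76% to 16.7%, 2.03% to 5.48%, 5.87% to 15.7%, 3.91% to 6.66%, 2.45% to 9.98%, 0.973% to 5.12% and 4.20% to 11.2% in the 7 tests in this order. No such share is given for the correlation counts.

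The replicate numbers did not pair the joints. The mean correlation of same-numbered deviations was -0.144 to 0.108, at most 4 of 5 pairs were over 0.1, and at most 3 of 5 joints correlated best with their own number. With the replicate block the counts stayed at 5, 1, 6 and 2. No member was at 0 in any joint, so depth limited mainly the 10 members with under 1000 reads in some joint.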
